A study of Mus musculus with 5 samples.

Results

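NF-kappaB and TNF receptor signalling is described here by 40 named genes, which were looked up by symbol among 21887 protein-coding genes of RefSeq on GRCm38.p6, the assembly whose chromosomes are those of mm10. All 40 were found. H3K36me3, trimethylation of lysine 36 on histone H3, was profiled by ChIP-seq in mTEClo, the medullary thymic epithelial cells with low CD80, sorted from thymus of wild-type B6 mice as EpCAM+ UEA-1+ Ly51lo cells at 50000 cells per assay. The study holds 2 ChIP libraries, 1 each of series 1 and 2, with 3 libraries of input chromatin that saw no antibody, 2 for series 1 and 1 for series 2. All of them share strain, genotype and tissue, no treatment is labelled, and the age of the mice is not given in the sources used here. The cells came from individual mice, but no library is tied to a mouse, so values that differ between the series may differ for technical reasons.

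NF-kappaB transcription factors are dimers of Rel family proteins held inactive in the cytoplasm. In the canonical arm, receptors such as the TNF receptors build ubiquitin chains on adaptor proteins, the IKK kinase complex is activated on them, and the IkappaB inhibitors are degraded. In the noncanonical arm, receptors such as RANK, CD40 and the lymphotoxin beta receptor stabilise the kinase NIK, which acts through IKKalpha to release RelB dimers, and this arm is required for medullary thymic epithelium to develop. H3K36me3 is laid down behind elongating RNA polymerase II, so that it lies over the bodies of transcribed genes and is commonly densest towards their 3′ ends.

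Broad peaks had been called against input for each ChIP library on its own, 7231 of them in series 1 and 10243 in series 2. The peaks carry a whole-number score and no read counts. Sequencing depth is therefore not known, and where a gene held no peak the mark was not detected, which is not evidence of its absence. Scores rank peaks within a list only. In series 2, 65.6% of peaks lay within 9 bp of the narrowest width of 216 bp, against 3.68% for the narrowest width of 221 bp in series 1. Both libraries belong to the same group, so no test between groups of samples could be made and all values are descriptions of these libraries. Among 9 markers of medullary epithelium, a peak was found in 4 in series 1 and in 3 in series 2, with the keratin gene Krt5 hit in both and Epcam in neither, and of 4 markers of mature medullary cells 1 was hit in series 1 and 2 in series 2. These were Ciita, with scores of 16 and 15 in series 1 and 2, and Cd80, for which the sort took cells low in protein, with a score of 12 in series 2. Aire had no peak in either series. Among markers of other thymic cells, 0 of 8 thymocyte genes, Ptprc included, and 0 of 4 fibroblast and endothelial genes had a peak in either series. Of 5 B cell genes, 1 was hit in series 1 and 2 in series 2, and the same held for 1 and 2 of 5 myeloid and dendritic genes. The B cell hits were Ebf1 and Pax5, which span 389997 and 185947 bp. The myeloid and dendritic hits were Itgam, Csf1r and Flt3, which span 55852, 25568 and 69749 bp. The hit markers of medullary epithelium, Krt5, Trp63, Itga6 and Lamb3, span 5837, 208326, 71542 and 49526 bp. In either series, 4 of 9 medullary epithelial genes, 2 of 5 B cell genes and 3 of 5 myeloid and dendritic genes were hit. Of all genes over 100 kb, 47.7% were hit in series 1 and 60.2% in series 2. Over all protein-coding genes, 16.3% were hit in series 1, 19.5% in series 2 and 27.4% in either. With so few markers, these counts do not tell whether the other thymic cells were present. Immune cells use this pathway too, and their part in the peaks described was not tested.

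A peak of H3K36me3 lay in 22 of the 40 genes in at least 1 series. A gene counts as hit here when at least 1 bp of a peak lies between its annotated ends. Series 1 had a peak in 11 members (27.5%), where 16.3% of all protein-coding genes had one. Series 2 had a peak in 16 members (40%), against 19.5% of all protein-coding genes. The 5 members hit in both series (12.5%, against 8.42% of all protein-coding genes) were Rnf31, Tnip1, Nfkb1, Chuk and Ripk1. A further 6 were hit in series 1 alone and 11 in series 2 alone, and 18 had no peak. Of the 22 members hit in either series 22.7% were hit in both, and of the 5990 protein-coding genes hit in either series 30.8% were. Hits in either series came to 55% of members, against 27.4% of all genes. Counting only peaks that scored 20 or more, 6 members (15%) were hit in series 1, against 10.9% of all genes. In series 2 it was 3 members (7.5%), against 9.01% of all genes. In both it was 1 member (2.5%, Rnf31), against 3.3% of all genes. In either series it was 8 members (20%), against 16.6% of all genes. At this score the share of members thus stood above that of all genes in series 1 and in either, but not in series 2 or in both. These counts are small, and the shares lie close to those of all genes. Counting only peaks at least 10 bp wider than the narrowest of their list, members with a peak numbered 8 (20%) in series 2 and 3 (7.5%) in both, against 9.76% and 4.95% of all genes.

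Longer genes were hit more often, from 3.8% of all protein-coding genes under 10 kb to 74.5% of those over 100 kb in either series. The cause of this relation was not tested. The members had a median span of 28.1 kb and ranged from 3.24 kb (Nfkbia) to 107.3 kb (Nfkb1), against a median of 17.2 kb for all protein-coding genes. Members with a peak in either series had a median span of 33.6 kb, and those with none a median of 18.998 kb. Among genes of like length the series differed. In series 1, 4 of 14 members of 20 to 50 kb were hit, where 21.1% of all genes of that length were, and 1 of 9 members of 50 to 100 kb, where 31.9% were. In series 2, 7 of 14 members of 20 to 50 kb were hit, where 23.4% of all genes of that length were, and 6 of 9 members of 50 to 100 kb, where 37.8% were. The share of members of 20 to 100 kb with a peak thus stood above that of all such genes in both classes in series 2, but not in the longer class in series 1. Between 10 and 20 kb, 2 of 9 members were hit in each series, where 10.1% of all genes of that length were in series 1 and 11.9% in series 2. Below 10 kb, series 1 marked 2 of 6 members, Nfkbie and Ltbr, where 1.78% of all genes that short were hit, and series 2 marked 0, where 2.41% were. Of the 2 members over 100 kb, Nfkb1 and Traf3, 2 were hit in series 1, where 47.7% of all genes that long were, and 1 in series 2, where 60.2% were. By class, from short to long, both series hit 0, 1, 2, 1 and 1 members, of 6, 9, 14, 9 and 2. Of all genes in those classes, 0.391%, 2.78%, 8.66%, 17.9% and 33.4% were hit in both. Either series hit 2, 3, 9, 6 and 2 members by class, against 3.8%, 19.2%, 35.8%, 51.7% and 74.5% of all genes.

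**Figure D1:**
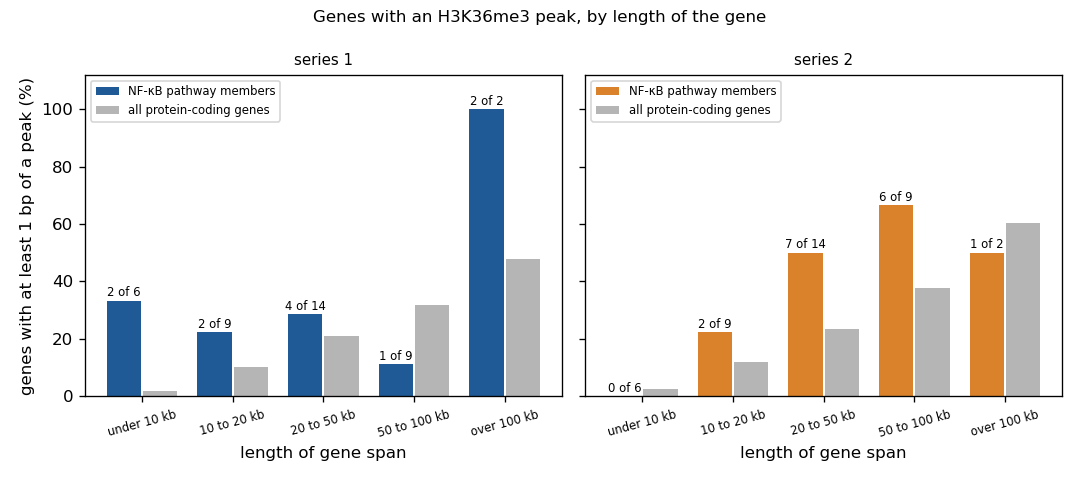
Share of genes with at least 1 bp of an H3K36me3 peak (vertical axis, percent) by length of the gene span (horizontal axis, 5 classes), for the 40 members (coloured bars, left of each pair, with counts) and all protein-coding genes (grey bars), in series 1 (left panel) and series 2 (right panel). In series 1 the members stand at 1 of 9 between 50 and 100 kb, below the 31.9% of all genes, while in series 2 they stand at 6 of 9, above the 37.8% of all genes.

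Summed over the 40 genes, the members span 1.41 Mb and contained 12 peaks in series 1 and 22 in series 2. This is 0.853 peaks per 100 kb in series 1, against 0.497 over all protein-coding genes, and 1.56 per 100 kb in series 2, against 0.619. The share of summed span under peaks was 0.626% in series 1, against 0.315% over all protein-coding genes, and 0.702% in series 2, against 0.224%. Without Rnf31, which held 5 of these peaks in 11.96 kb, the densities were 0.717 and 1.36 peaks per 100 kb. Density over all genes was lower in genes over 100 kb, at 0.327 peaks per 100 kb in series 1 and 0.460 in series 2. At 20 to 50 kb the members had 0.892 peaks per 100 kb in series 1, against 0.868 for all genes of that length, and 1.56 in series 2, against 0.931. At 50 to 100 kb they had 0.172 in series 1, against 0.668, and 1.38 in series 2, against 0.792.

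**Figure D2:**
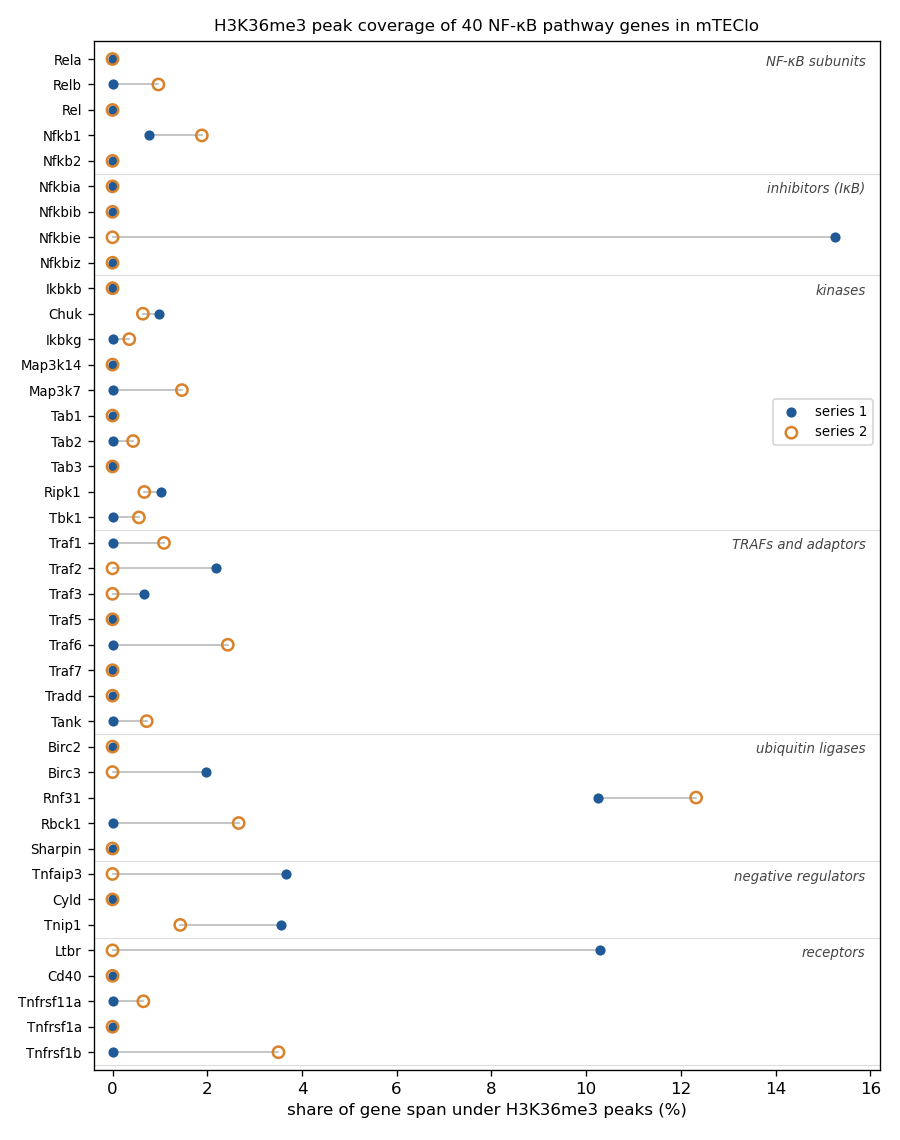
Share of each gene's span under H3K36me3 peaks (horizontal axis, percent) for the 40 members (vertical axis, grouped by role), with series 1 as filled and series 2 as open circles joined by a line. Rnf31 alone stands above 10% in both series. Nfkbie and Ltbr stand above 10% in series 1 and at 0 in series 2.

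The linear ubiquitin ligase complex had the member with the highest mean coverage over the series. Rnf31, on chromosome 14 from 55591713 to 55603674, encodes HOIP, the subunit that joins ubiquitin into linear chains on which the IKK complex docks. In series 1 it had 2 peaks over 10.2% of its span and in series 2 it had 3 over 12.3%, a mean of 11.3% ± 1.47 (SD, n = 2). It was the single member to reach 10% in both series, as did 0.0183% of all protein-coding genes. In series 1 alone 3 members reached 10% (against 0.525% of all genes) and in series 2 it was again Rnf31 alone (0.233%). At a lower bar of 2% in either series there were 9 members, against 8.42% of all genes. Its highest score was 34 in series 1, above 82.2% of that list, and 21 in series 2, above 68.2% of that list. Peaks of the libraries overlapped at 2 places in the middle and later part of the gene, centred 6.58 and 6.79 kb and then 8.16 and 8.85 kb from its 5′ end in series 1 and 2, and shared 333 bp in all. The third series 2 peak, with a score of 12, lay 11.5 kb from the 5′ end. The next coding gene, Irf9, lies 311 bp from Rnf31, but no peak of Rnf31 lay under another annotated gene.

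The other subunits of the complex had less. Rbck1, which encodes HOIL-1, had 2 peaks of 218 and 217 bp in series 2, with scores of 22 and 21, over 2.66% of its span, and none in series 1. Sharpin, which encodes the third subunit in a span of 4.07 kb, had no peak in either series. The ubiquitin ligases cIAP1 and cIAP2, which act with TRAF2 and TRAF3, are encoded by the neighbours Birc2 and Birc3. Birc3 had 1 peak in series 1 over 1.98% of its span, and Birc2 had none within its span, with the nearest series 1 peak 1.11 kb away.

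Both ubiquitin-dependent brakes of the pathway with a peak had it near the 3′ end. Tnip1, on chromosome 11 from 54910787 to 54962956, encodes ABIN-1, a ubiquitin-binding partner of A20. Its single series 1 peak was 1857 bp wide with a score of 48, the highest of any member in either list and above 93.1% of series 1 peaks. Its single series 2 peak was 746 bp wide with a score of 14 and lay wholly inside the series 1 peak, and both peaks end on the same base, 54917085. They covered 3.56% and 1.43% of the span in series 1 and 2 and were centred 46.8 and 46.2 kb from the 5′ end of a gene of 52.2 kb. Tnfaip3, which encodes A20 itself, had 1 peak of 530 bp in series 1 with a score of 27, over 3.65% of its span and 12.1 kb from the 5′ end of a gene of 14.5 kb, and none in series 2. Cyld, which encodes a deubiquitinase that removes linear and lysine-63-linked chains, had none in either series.

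No promoter of a member carried a peak. The RefSeq promoter table, on GRCm38.p6, gave 45 windows, from 250 bases before to 50 after an annotated start, for 32 of the 40 members. The windows of 0 of 32 members touched a peak in either series, and over all 17492 protein-coding genes with a window 0.0572% did in series 1 and 0.0743% in series 2, so that a peak there was rare throughout. The starts of 3 members are shown because their peaks lay in the gene body, 6.58 to 46.8 kb from the 5′ end: Rnf31 and Tnip1, where peaks of both series overlapped, and Tnfaip3, whose product works with that of Tnip1. Capitals mark matches to the kappaB consensus, the 10-base binding motif of NF-kappaB dimers, searched on both strands, with overlapping matches joined.
Rnf31 (chr14:55591492-55591791, plus strand): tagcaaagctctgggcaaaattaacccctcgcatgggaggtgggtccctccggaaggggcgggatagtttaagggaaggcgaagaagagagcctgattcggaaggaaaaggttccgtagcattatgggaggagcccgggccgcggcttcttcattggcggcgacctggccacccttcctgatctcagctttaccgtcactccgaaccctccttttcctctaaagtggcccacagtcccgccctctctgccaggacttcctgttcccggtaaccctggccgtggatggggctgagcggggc
Tnip1 (chr11:54962891-54963190, minus strand): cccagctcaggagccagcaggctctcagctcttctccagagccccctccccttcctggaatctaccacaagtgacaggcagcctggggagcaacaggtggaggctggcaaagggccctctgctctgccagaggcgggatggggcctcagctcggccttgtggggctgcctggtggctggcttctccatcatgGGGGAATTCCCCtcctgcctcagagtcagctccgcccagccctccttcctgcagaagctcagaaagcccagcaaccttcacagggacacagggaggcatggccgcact
Tnfaip3 (chr10:19015361-19015660, minus strand, the upstream of its 2 windows): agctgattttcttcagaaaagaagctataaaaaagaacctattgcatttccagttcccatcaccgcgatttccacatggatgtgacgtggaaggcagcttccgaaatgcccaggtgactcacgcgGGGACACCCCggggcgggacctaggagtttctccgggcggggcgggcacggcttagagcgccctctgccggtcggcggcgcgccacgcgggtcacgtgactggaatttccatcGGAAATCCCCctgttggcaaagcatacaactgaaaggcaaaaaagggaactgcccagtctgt
Rnf31 had no match in these letters, Tnip1 had 3 overlapping matches in 1 run beginning at base 193 of the window, and Tnfaip3 had 2 separate matches, the first at base 126. A match was found for 10 of the 32 members (31.25%) and for 10.5% of all protein-coding genes with a window. A match in any window of a gene counted. The 32 members had 45 windows and the 17492 genes had 21263, so members had somewhat more windows per gene. The motif is rich in G and C, and the median GC content of the windows was 63.4% for members and 56.3% for all genes. The parts of base composition and of the number of windows in the difference were not tested. Among members with a peak somewhere in the gene 6 of 20 had a match, and among those without a peak 4 of 12, so these shares were close.

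Among the transcription factor subunits, the canonical Nfkb1 was hit in both series. It encodes p105, the precursor of the p50 subunit, on chromosome 3 from 135584655 to 135691969. It had 1 peak of 817 bp with a score of 22 in series 1, and 2 peaks of 944 and 1080 bp with scores of 16 and 18 in series 2. These covered 0.761% (series 1) and 1.89% (series 2) of the gene, a mean of 1.32% ± 0.795 (SD, n = 2). The series 1 peak and the first series 2 peak shared 200 bp, 3.82 and 3.14 kb from the end of the span with the lower coordinate. The strand of Nfkb1 is not given in the tables used, so the end is not named as 5′ or 3′. Relb, the partner of p52 in the noncanonical arm, had 1 peak of 225 bp in series 2 with a score of 12, at or below which lay 34.4% of that list. Rela, Rel and Nfkb2, which encode p65, c-Rel and the p100 precursor of p52, had no peak in either series, and the nearest peak of either list was 19.6 kb or more away from each.

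Of the 4 IkappaB inhibitors 1 had a peak (25%), in series 1 alone, where 27.4% of all protein-coding genes were hit in either series. The median span of the 4 is 7.93 kb, and of all genes under 10 kb 3.8% were hit in either series. Nfkbie, which encodes IkappaB epsilon in a span of 7.47 kb on chromosome 17, had 1 peak of 1139 bp over 15.2% of its span in series 1, the highest share of any member. Its score was 17, above only 20.6% of that list, and series 2 had no peak within 454.4 kb of the gene. Nfkbia, Nfkbib and Nfkbiz, which encode IkappaB alpha, beta and zeta, had none in either series. A series 2 peak lay 755 bp outside Nfkbia, the shortest member at 3.24 kb. A series 1 peak lay 4.68 kb outside Nfkbiz.

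Of the 10 kinases and their subunits, 6 had a peak in series 2 and 2 of these, Chuk and Ripk1, also in series 1. The kinase genes are long, with a median span of 47.5 kb. Of all protein-coding genes of 20 to 50 kb, 21.1% were hit in series 1, 23.4% in series 2 and 8.66% in both. Of those of 50 to 100 kb, 31.9% were hit in series 1, 37.8% in series 2 and 17.9% in both. The 2 of 10 kinases hit in series 1 (20%) thus did not stand above these shares. Chuk, which encodes IKKalpha, the kinase of the noncanonical arm, had 1 peak of 338 bp in series 1 and 1 of 219 bp in series 2, each with a score of 17, over 0.989% and 0.641% of its span. Ripk1, which encodes the kinase recruited to TNF receptor 1, had 1 peak of 338 bp with a score of 14 in series 1 and 1 of 221 bp with a score of 16 in series 2, over 1.03% and 0.671% of its span. The peaks did not coincide: those of Chuk lay 18.1 kb apart and those of Ripk1 8.72 kb apart.

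The other kinases were hit in series 2 or not at all. Map3k7, which encodes TAK1, the kinase that activates IKK, had 1 peak of 879 bp with a score of 12 over 1.47% of its span. Its adaptor Tab2 had 1 peak of 220 bp, and Tab1 and Tab3 had none. Tbk1, a kinase related to the IKKs, and Ikbkg, which encodes NEMO, the regulatory subunit of IKK, had 1 peak of 225 bp each with a score of 12. Ikbkb, which encodes IKKbeta, and Map3k14, which encodes NIK, had none in either series, with the nearest peak of either list 72.2 and 40.8 kb away.

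**Figure D3:**
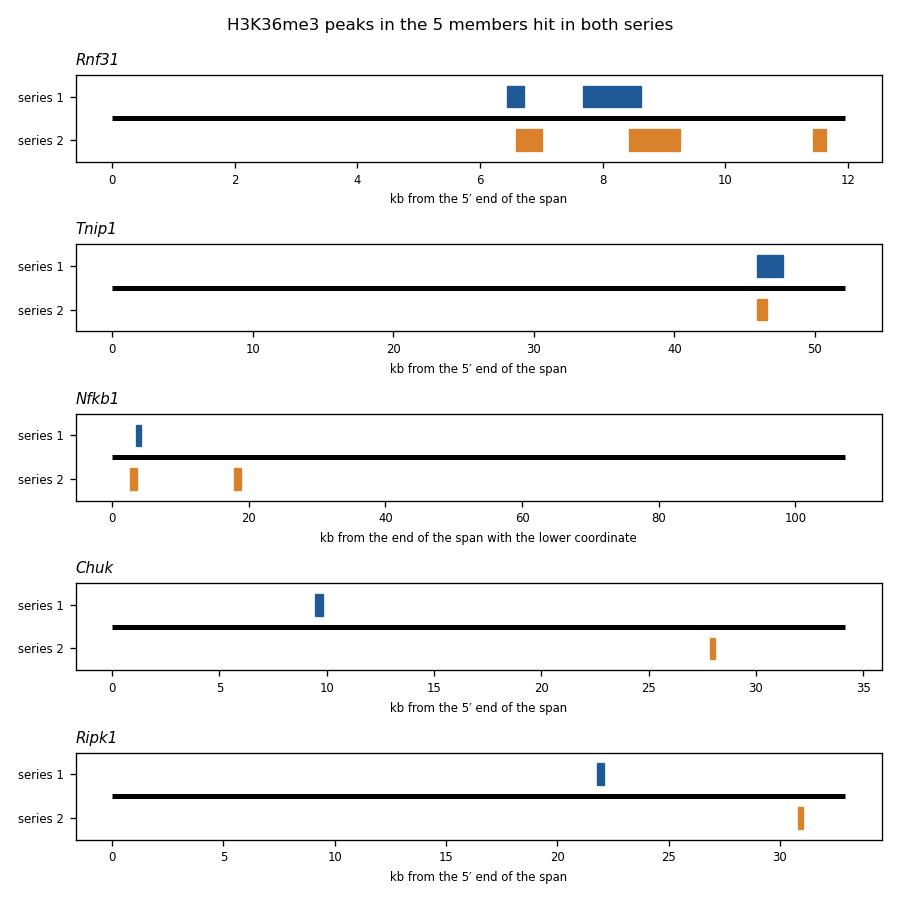
Peaks of series 1 (above the line) and series 2 (below the line) in the 5 members hit in both series, drawn to the scale of each gene. The horizontal axis is the distance in kb from the 5′ end of the span, and for Nfkb1 from the end with the lower coordinate. Peaks overlap in Rnf31 (333 bp shared), Tnip1 (746 bp) and Nfkb1 (200 bp) and lie apart in Chuk (18.1 kb) and Ripk1 (8.72 kb).

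Peaks of the libraries thus overlapped in 3 of the 5 members hit in both, where 17.6% of the 1843 protein-coding genes hit in both had such an overlap. Counted over all genes, this is 3 of 40 members, against 1.48% of protein-coding genes. Of the member peaks, 4 of 12 in series 1 (33.3%) and 4 of 22 in series 2 (18.2%) touched a peak of the other library, against 4.98% of all peaks in series 1 and 3.52% in series 2. The latter shares are of the whole lists, which also hold peaks outside coding genes, so the sets are unlike. Rnf31 held 2 of the 4 in each series. Among peaks scoring 20 or more, Rnf31 was the single member whose peaks still overlapped.

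Of the 8 TRAFs and other adaptors 5 were hit, each in a single series, where 27.4% of all protein-coding genes and 35.8% of those of 20 to 50 kb were hit in either series. The median span of the 8 is 26.1 kb. TRAF proteins carry the signal from the receptor tails. Traf2 and Traf3, whose products together keep NIK low in resting cells, had a peak in series 1 alone, of 630 bp with a score of 28 over 2.18% of Traf2 and of 664 bp with a score of 15 over 0.659% of Traf3. Traf1, whose product binds TRAF2, and Traf6, the adaptor that acts below RANK and CD40, had a peak in series 2 alone, of 218 bp with a score of 17 over 1.09% of Traf1 and of 566 bp with a score of 16 over 2.43% of Traf6. Tank, whose product binds TRAFs and TBK1, had 2 peaks in series 2, each with a score of 12. Traf5, Traf7 and Tradd, the adaptor of TNF receptor 1, had none in either series.

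Of the 5 receptors, 3 had a peak, each in a single series, where 27.4% of all protein-coding genes had one in either series and 8.42% in both. Ltbr, the lymphotoxin beta receptor on chromosome 6, had 1 peak of 753 bp with a score of 24 in series 1 over 10.3% of its 7.32 kb, centred 2.50 kb from its 5′ end. Series 2 had no peak within 199.2 kb of it. Tnfrsf11a, which encodes RANK, the receptor that drives the maturation of medullary epithelium, had 2 peaks in series 2, of 216 and 232 bp with scores of 19 and 30. The second score, above 87.8% of that list, was the highest of any member in series 2. The peaks lay 34.3 and 39.7 kb from the 5′ end of the gene and covered 0.651% of its 68.8 kb. Tnfrsf1b, which encodes TNF receptor 2, had 1 peak of 1209 bp with a score of 18 in series 2, the widest of any member in that list, over 3.50% of its span. Cd40 and Tnfrsf1a, which encode CD40 and TNF receptor 1, had none in either series.

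Most peaks of members with a known strand lay in the 3′ part of the gene, as did most peaks of all genes. Strand was given for 32 of the 40 members and 17492 of all protein-coding genes. In series 1 the 11 peaks of members with a known strand had a median position of 68.2% of the span from the 5′ end (interquartile range 58.8 to 83.6%), and 9 of the 11 lay beyond the middle of the gene. Over all protein-coding genes in series 1 the median was 60.9% (36.4 to 80.6%), and 62.2% of peaks lay beyond the middle of the gene. In series 2 the 19 member peaks had a median of 62.1% (52.6 to 86.1%), with 14 of 19 beyond the middle of the gene, against a median of 58.9% (34.7 to 79.8%) and 59.6% beyond the middle of the gene over all genes. None of these peaks lay in the first 10% of its gene, a stretch with 4.64% and 5.36% of the peaks of all genes in series 1 and 2. Among them the nearest to the 5′ end in relative terms were those of Ikbkg in series 2, at 10.1% of its span, and of Chuk in series 1, at 28.2%. Ikbkg also has annotated starts downstream of its peak, so its position holds only from the 5′ end of the whole span. The 3 peaks of Nfkb1 and the peak of Relb have no strand in the tables used and are not counted here. From the end with the lower coordinate, the Relb peak lay at 95.6% of the span and 2 of the Nfkb1 peaks at 2.92% and 3.56%, so that each may lie near the 5′ or the 3′ end.

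**Figure D4:**
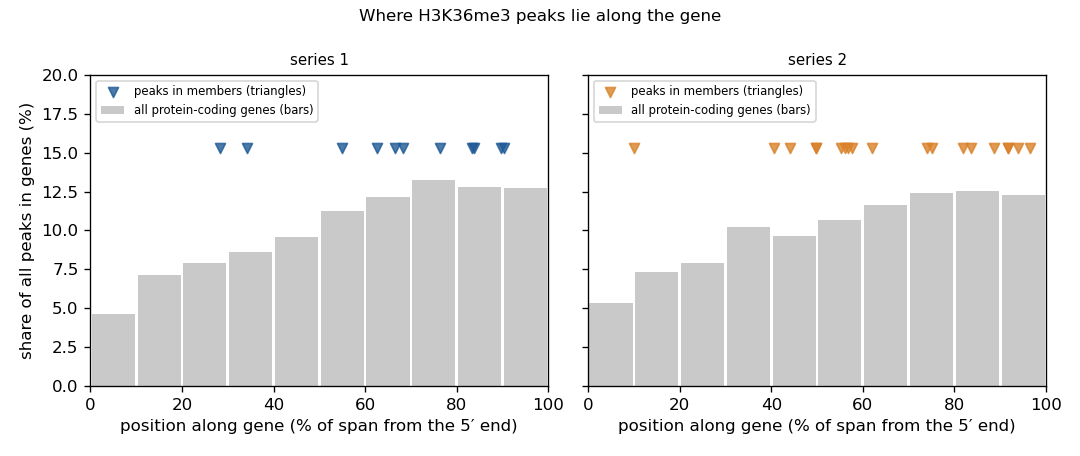
Position of H3K36me3 peak centres along the gene (horizontal axis, percent of the span from the 5′ end) in series 1 (left) and series 2 (right). Triangles mark single peaks in members and are placed at a fixed height, and grey bars give the share of the peaks in all protein-coding genes (vertical axis, percent) in each of 10 equal parts of the span. The first part holds no peak of a member with a known strand, and 9 of 11 member peaks in series 1 and 14 of 19 in series 2 lie beyond the middle of the gene.

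The median score was 20 for member peaks and 21 for all peaks in series 1, and 16 for both in series 2. A score of at least 20 was reached by 6 of 12 member peaks in series 1 (50%, against 55.8% of that list) and by 4 of 22 in series 2 (18.2%, against 35.7%). None reached 50. A width within 9 bp of the narrowest peak was seen in 0 of 12 member peaks in series 1 and 12 of 22 in series 2 (54.5%, against 65.6% of that list).

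Other genes of the pathway, 74 in a list drawn up beside the members, include ligands, further receptors, adaptors, kinases, ubiquitin enzymes and cofactors. In series 1, 20 (27%) were hit, in series 2, 23 (31.1%) and in both, 10 (13.5%), against 16.3%, 19.5% and 8.42% of all protein-coding genes, at a median span of 28.7 kb. Of all genes of 20 to 50 kb, 21.1%, 23.4% and 8.66% were hit in series 1, series 2 and both. The list was chosen with earlier results of these data known, so its shares are not independent of them. None of 8 genes of ligands and of the decoy receptor Tnfrsf11b, Tnf, Ltb and Tnfsf11 (RANK ligand) among them, had a peak in either series. The median span of the 8 is 8.30 kb, but Tnfsf11, Tnfsf13b and Tnfrsf11b span 30598, 29772 and 27866 bp. In either series 27.4% of all protein-coding genes were hit, 3.8% of those under 10 kb and 35.8% of those of 20 to 50 kb. Among 17 genes of ubiquitin enzymes 8 were hit in series 1 (47.1%) and 6 in series 2 (35.3%), and among 8 kinases and adaptors of TBK1 4 (50%) and 5 (62.5%). The ubiquitin enzyme genes have a median span of 50.1 kb. Of all genes of 50 to 100 kb, 31.9% were hit in series 1 and 37.8% in series 2. The kinase and adaptor genes have a median span of 36.6 kb, in the class of 20 to 50 kb.

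Of the 10 hit in both, Rbx1 was the best covered. It encodes the RING subunit of the cullin ligases that degrade IkappaB proteins, and peaks covered 9.56% of it in series 1 and 8.50% in series 2, a mean of 9.03% ± 0.746 (SD, n = 2). Its peaks shared 113 bp, and it was the only gene of this list whose peaks overlapped. Traf3ip2, which encodes the IL-17 receptor adaptor Act1, followed with 2.75% ± 2.11. Otulin, whose product cleaves the linear chains that HOIP makes, had 1 peak in each series and a mean of 1.78% ± 0.482. Cflar and Casp8, which encode the death receptor regulator c-FLIP and its partner caspase-8, had means of 1.49% ± 0.126 and 1.34% ± 1.29 (SD, n = 2 for each). Map3k1, a kinase upstream of JNK, Tax1bp1, an adaptor of A20, Il1r1, the interleukin-1 receptor, Itch, a ubiquitin ligase that works with A20, and Erc1, a partner of the IKK complex, had means from 0.659% to 1.08%.

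The 18 members without a peak were Rela, Rel, Nfkb2, Nfkbia, Nfkbib, Nfkbiz, Ikbkb, Map3k14, Tab1, Tab3, Traf5, Traf7, Tradd, Birc2, Sharpin, Cyld, Cd40 and Tnfrsf1a. Of these, 10 span less than 20 kb, and 15 had no peak of either list within 5 kb. Another protein-coding gene lies within 5 kb of 21 members. No member peak lay under another annotated gene of any kind. Among the 19 members without such a neighbour series 1 hit 4 (21.1%), against 15.6% of all protein-coding genes without one, and series 2 hit 8 (42.1%), against 18.8%. Both series hit 1 (5.26%), against 8.47%.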

How the data were processed

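H3K36me3 ChIP-seq of sorted mTEClo was analysed from 2 lists of broad peaks, 1 for each ChIP library. The submitters' processing notes name the tools Bowtie2, SAMtools and MACS2 and the build mm10. Neither versions nor settings are given in the sources used here. According to the peak names in the files, series 1 was called against 2 input libraries and series 2 against 1, without pooling the ChIP libraries. The authors deposited a whole-number score per peak, whose meaning is not stated, and no read counts. Scores were used to rank and filter peaks within a list. The input libraries themselves were not analysed here.

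Peaks were intersected with RefSeq gene spans (GRCm38.p6, chromosomes 1 to 19, X and Y) at a minimum of 1 bp. The table gives no exons or introns. Strand came from the RefSeq promoter table. Covered share is the percent of a span under peaks. Background shares are over all 21887 protein-coding genes or those of like length. No test was made, since the 2 ChIP libraries are 1 group. The members, lists and length classes were chosen with earlier results of these data known. Members hit in both series or covered over at least 2% in either are given with values, the others by role, and other pathway genes if hit in both series. Alternatives changed the score threshold, overlap, peak width, gene span, neighbours and library. The intersection was checked on simulated peaks, planted in 200 genes, of which all were found. Python 3.11.15, numpy 2.4.6 and pandas 2.3.3 were used.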

Additional observations from a re-analysis of the deposited data

How the results depend on the processing

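Counts of members were the same when at least 50% of a peak had to lie in the gene, or with only peaks under no other annotated gene, an alternative added after seeing the data. Every member peak lay wholly within its gene and under no other annotated gene. These rules therefore removed no member peak and could not change the counts. The counts depended on the score. With a score of at least 20, members with a peak numbered 6 in series 1, 3 in series 2, 1 in both and 8 in either, and those with overlapping peaks 1. Other pathway genes then numbered 13, 11, 4 and 20, and the mean covered share of the 5 members hit in both series was 1.02%, against 3.35% with all peaks. With all peaks Rnf31 stood at 11.3% and the median of the 5 was 1.32%, so this mean rests largely on Rnf31. With a score of at least 50 no member was left (0 in each count, and a share of 0%), and other pathway genes numbered 0 in series 1, 2 in series 2, 0 in both and 2 in either. With at least 10% of the span under peaks the members numbered 3 in series 1, 1 in series 2, 1 in both and 3 in either. With peaks at least 10 bp wider than the narrowest of their list, 8 members were hit in series 2, 3 in both and 16 in either, and the share was 3.04%. Spans widened by 1 kb gave a share of 2.99% and at most 1 more member. Among the 19 members with no coding neighbour within 5 kb, counts were 4, 8, 1 and 11, and the median peak position was 83.4% in series 1 (3 peaks) and 56.1% in series 2 (9 peaks). With either library left out, the counts in both and in either series by definition became that of the other library, 11 to 16. The share was then 3.32 to 3.39%. The cause of these changes was not tested, except that fewer peaks or genes enter under the stricter rules. No paired analysis was possible because the ChIP libraries have no second group of peak lists to pair with. Depth is unknown, so genes without a peak cannot be told from genes below detection.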
